A study of Sus scrofa domesticus with 8 samples.

Results

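The mitochondrial respiratory chain was followed in porcine granulosa cells during 144 h of culture through 52 genes, out of 10905 genes named on the array. The members are all genes whose annotated symbol begins with NDUF, SDHA to SDHD, UQCR, COX followed by a digit, or ATP5. They had 59 of the 27558 array features, and the 7 genes with more than 1 feature were read from the feature with the highest mean. COX7A2 was measured by 2 features with identical values, which were counted once. A further 3 features that match these symbols but carry other symbols as well were not used. Of the 52 genes, 44 encode subunits: 21 of complex I, 1 of complex II, 2 of complex III, 10 of complex IV (including NDUFA4L2, a paralog of the subunit gene NDUFA4) and 10 of the ATP synthase. The other 8 encode assembly factors, which build the complexes and are not parts of them, so the set is broader than subunits alone.

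The cells were collected after slaughter from crossbred Landrace gilts, 43 in number, whose median age was 170 days at 98 kg body weight. Granulosa cells are the somatic cells that surround the oocyte and line the follicle. RNA was taken before culture (0 h) and at 48 h, 96 h and 144 h in DMEM with 2% fetal bovine serum, antibiotics and glutamine at 37 °C, with 2 arrays per time and 8 in all. All groups share the breed and the slaughter source, the 3 cultured groups share the medium, and no label says which animals entered which array. Values are log2 intensities from RMA, a method that corrects, normalizes and summarises the probes of a feature. An intensity also depends on the probes of its feature, so levels of different genes are not set against each other as amounts of RNA. A difference is that between the means of 2 and 2 arrays, given with the SE (standard error) that limma estimates, and a gene was called at an adjusted p below 0.05 over all features.

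The respiratory chain passes electrons from NADH and succinate to oxygen in the inner mitochondrial membrane. Complexes I, III and IV pump protons as electrons pass, complex II feeds electrons from the citric acid cycle without pumping, and the ATP synthase (complex V) lets protons flow back to make ATP. Most subunits are encoded in the nucleus, and a small set, among them COX1 and COX2, is encoded by mitochondrial DNA. In steroid-producing cells of the ovary, mitochondria also hold the first enzyme of steroid synthesis.

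Over all features, the arrays of 0 h and of 96 h both stood apart. Both 0 h arrays lay above the other 6 for 20.1% of all features and below them for 16.5%, and both 96 h arrays for 16.1% and 17.1%. The same shares were 6.95% and 5.80% for the 48 h arrays, and 5.08% and 5.32% for those of 144 h. The median SD between the 2 arrays of a time over all features was 0.063 at 96 h, against 0.093 at 0 h, 0.097 at 48 h and 0.154 at 144 h. Of the granulosa markers, 6 of 13 were measured, and their summed log2 intensity went from 55.0 and 55.4 on the 0 h arrays to 42.9 and 43.0 at 48 h, 34.8 and 34.5 at 96 h, and 33.1 and 35.8 at 144 h. The sum of 6 of 7 fibroblast markers went from 29.2 and 29.8 to 44.8 and 44.8, 51.3 and 51.1, and 58.1 and 55.8. The sum of 7 of 11 oocyte markers went from 34.7 and 33.1 at 0 h to between 23.0 and 24.1 later. The sum of 8 of 12 leukocyte markers lay between 32.9 and 36.6 on all arrays, and that of 5 of 7 endothelial markers between 18.0 and 19.3. These sums hide single markers that went opposite ways. Against 0 h, limma called 1 leukocyte marker higher and none lower at 48 h. At 96 h 2 were higher and 3 lower, with differences of -2.19 to 1.75 over the list, and at 144 h 2 were higher and 2 lower. Of the endothelial markers, 1 was called higher and 1 lower than at 0 h at each later time. The sum of 4 of 5 theca markers went from 22.7 and 22.8 at 0 h to 21.0 and 20.9 at 48 h, 16.2 and 15.5 at 96 h, and 16.2 and 16.1 at 144 h, with 2 of the 4 called lower than at 0 h at each of the last 2 times. HBB and ALAS2, the measured erythrocyte markers, lay below the lower quartile of every array. The part of these shifts in the results below was not tested, and fewer cells of a type and less RNA per cell cannot be told apart in such samples.

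No respiratory chain gene differed 2-fold between 0 h, 48 h and 144 h, while at 96 h the genes went apart in both directions. From 0 h to 48 h, 15 of the 52 genes rose and 1 fell; over all features, 15.2% rose and 14.8% fell. From 0 h to 144 h, 9 rose and 1 fell (all features 15.4% and 16.7%). From 48 h to 144 h none rose and 1 fell (all features 4.32% and 4.32%), where limma at an unadjusted p below 0.05 gave none and 8. A call with a 2-fold difference was made for no member in these 3 comparisons, against 11.0%, 13.3% and 3.14% of all features.

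From 0 h to 96 h, 18 members rose and 17 fell (all features 19.0% and 22.3%). From 48 h to 96 h, 13 rose and 21 fell (all features 13.4% and 16.0%), and from 96 h to 144 h, 15 rose and 14 fell (all features 12.1% and 10.1%). These comparisons share the 96 h arrays, so they do not support each other. The lowest and highest member differences were -2.11 and 2.04 between 96 h and 48 h, and -0.64 and 0.18 between 144 h and 48 h.

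**Figure D1:**
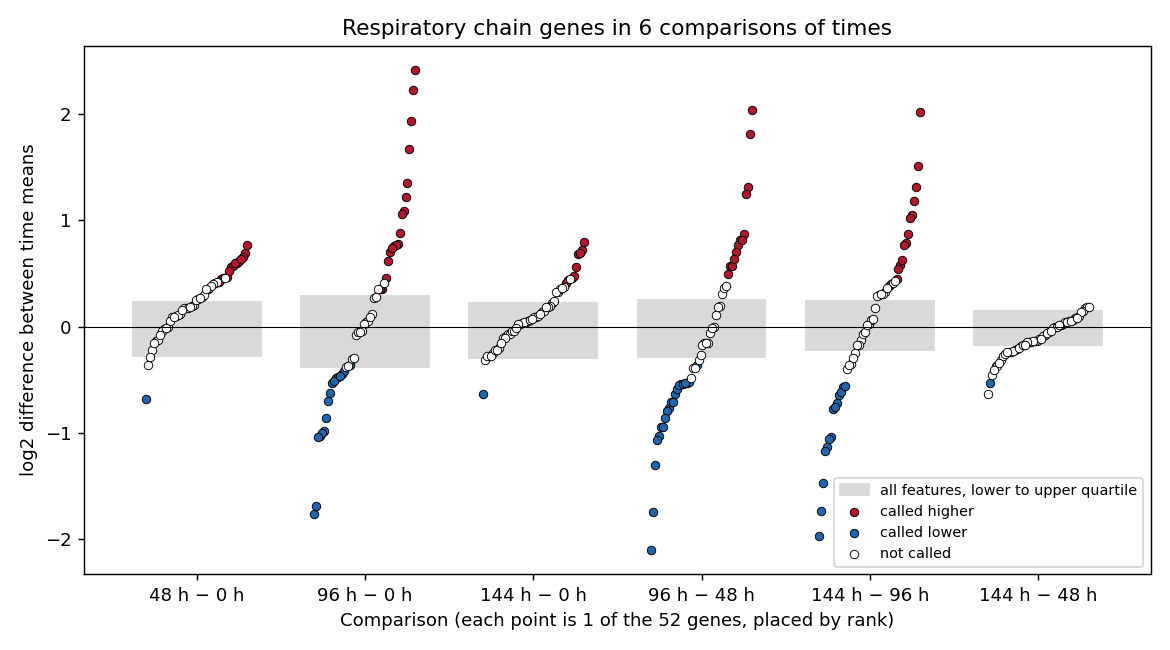
Log2 difference of each of the 52 respiratory chain genes between the time means in 6 comparisons, with points placed by rank and coloured by limma's call at an adjusted p below 0.05. Grey boxes span the lower to upper quartile of all 27558 features. Points reach beyond -1 and 1 in each comparison with 96 h, and stay within these values in the others.

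The share of all features called was 30.0% at 48 h against 0 h (members 30.8%), 41.3% at 96 h against 0 h (67.3%), 32.1% at 144 h against 0 h (19.2%), 29.4% at 96 h against 48 h (65.4%), 8.64% at 144 h against 48 h (1.92%) and 22.2% at 144 h against 96 h (55.8%). Against all features, the members' share was thus close at 48 h, below at 144 h against 0 h and 48 h, and above in the 3 comparisons with 96 h. Among the 10905 named genes, the shares called were 34.0%, 44.8%, 36.8%, 31.2%, 10.5% and 23.0%, in the same order. With dim features left out, 44.1%, 58.2%, 47.4%, 42.8%, 13.9% and 33.4% of features were called, and 18, 35, 13, 35, 1 and 29 members. Against that background the members fell short at 48 h, and their excess at 96 h against 0 h was smaller. Leaving out dim features also removed NDUFA4L2, so the member counts of that setting are out of fewer than 52 genes. The median absolute difference of the members between 96 h and 48 h was 0.56, against 0.27 over all features. Between 144 h and 48 h it was 0.15, against 0.16. Both 96 h arrays lay above the other 6 for 16 members (30.8%, all features 16.1%) and below them for 19 (36.5%, all features 17.1%). For 0 h, these numbers were 3 (5.77%, all features 20.1%) and 12 (23.1%, all features 16.5%). For 48 h they were 9 (17.3%, all features 6.95%) and 0 (all features 5.80%). For 144 h they were 2 (3.85%, all features 5.08%) and 3 (5.77%, all features 5.32%). Called in comparisons with 96 h and in no other were 25 members (48.1%, all features 16.4%), called in at least 1 comparison without 96 h were 17 (32.7%, all features 39.5%), and 10 were called in none (19.2%, all features 44.1%).

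**Figure D2:**
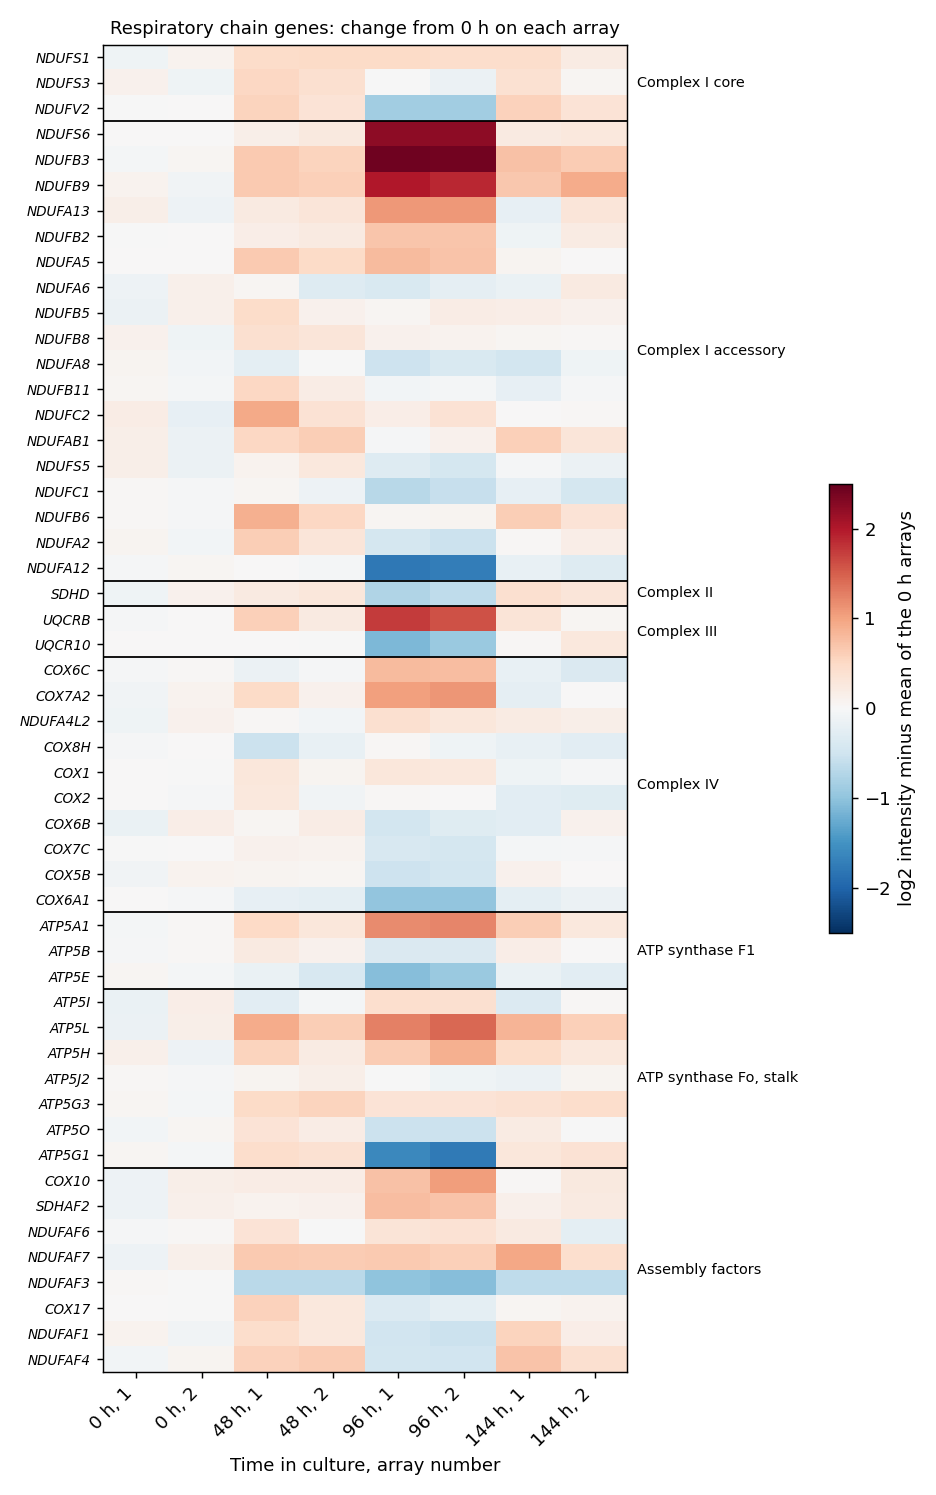
Log2 intensity of each gene on each of the 8 arrays minus the mean of its 0 h arrays, grouped by complex and ordered within a group by the difference between 96 h and 48 h. The 96 h columns hold the strongest colours in both directions, while the 48 h and 144 h columns look alike.

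At 48 h nearly all called members had risen from 0 h, by less than 2-fold. The median of the 52 differences was 0.26, against -0.04 over all features, and 0.17 after cyclic loess. The 15 genes called higher were 9 of the 21 complex I subunit genes, 3 of the 10 ATP synthase genes and 3 of the 8 assembly factor genes. None of the 10 complex IV genes was called by limma, and at an unadjusted p below 0.05 none was higher and 1 lower. The share called was 42.9% for complex I subunits and 30.0% for the ATP synthase, against 30.0% of all features. Of the complex IV genes, COX8H and NDUFA4L2 lay below the lower quartile on 7 of 8 arrays. Differences between complexes were not tested. The 1 gene called lower was the assembly factor gene NDUFAF3. The number called higher depended on the scaling and on single arrays: it was 8 (with 3 lower) after cyclic loess and 9 (with 2 lower) after quantile normalization. Without the 96 h arrays, or without either of them, it was 9, and without 0 h replicate 1, 0 h replicate 2 or 48 h replicate 1 it was 6, 6 and 5.

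At 144 h the levels were close to those at 48 h. The median difference from 0 h was 0.08, against -0.05 over all features; it was 0.02 after cyclic loess, 0.04 after quantile normalization and 0.13 after median centring. The share of all features called in the same direction at all 3 later times was not counted, so the genes named next have no background. ATP5G3, ATP5L, NDUFB3, NDUFB9 and NDUFAF7 (the last chosen after its values were seen) were higher than at 0 h at all 3 later times, and NDUFAF3 was lower at all 3. NDUFB3 and NDUFAF3 kept these calls under every alternative run, while NDUFAF7 lost all 3 without 0 h replicate 1 (adjusted p = 0.166, 0.143 and 0.126). With the 96 h arrays left out, 6 members rose and 1 fell from 0 h to 144 h. The balance of directions rested on the scaling, with 5 higher and 6 lower after cyclic loess, 6 and 4 after quantile normalization, and 9 and 1 as deposited. Fitted to the 4 arrays compared, 3 were higher and 1 lower, and without 0 h replicate 1, 0 h replicate 2 or 144 h replicate 1 the number higher was 3, 5 and 5; the number lower was 3 without 144 h replicate 1 and 2 without 144 h replicate 2. The single gene called lower between 48 h and 144 h, NDUFA5, a complex I accessory gene chosen after its values were seen, differed by -0.53 ± 0.11 (adjusted p = 0.0227), and the adjusted p was 0.0636 without the 96 h arrays or without either of them, 0.144 and 0.0548 without 48 h replicates 1 and 2, and 0.15 in the fit to the 4 arrays.

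At 96 h members of the same complex went in opposite directions. Members called higher at 96 h than at 48 h had a median 0 h signal of 6.38, and those called lower 8.65. The same order was seen over all features, with 5.43 and 6.64. Whether signal level has a part in these directions was not tested. Against 48 h, 4 members were at least 2-fold higher (NDUFS6, NDUFB3, NDUFB9 and UQCRB) and 5 at least 2-fold lower (ATP5G1, NDUFA12, NDUFV2, NDUFAF4 and UQCR10). A call with a difference of at least 2-fold was made for 9.69% of all features. The counts against 48 h were 8 higher and 11 lower without 96 h replicate 1, and 7 and 13 without 96 h replicate 2. Against 0 h, median centring moved the balance from 18 higher and 17 lower to 20 and 12, and the number lower was 10 without 0 h replicate 2, 9 without 96 h replicate 1 and 10 without 96 h replicate 2. From 96 h to 144 h, the counts were 8 higher and 9 lower without 96 h replicate 1, and 8 and 8 without 96 h replicate 2.

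**Figure D3:**
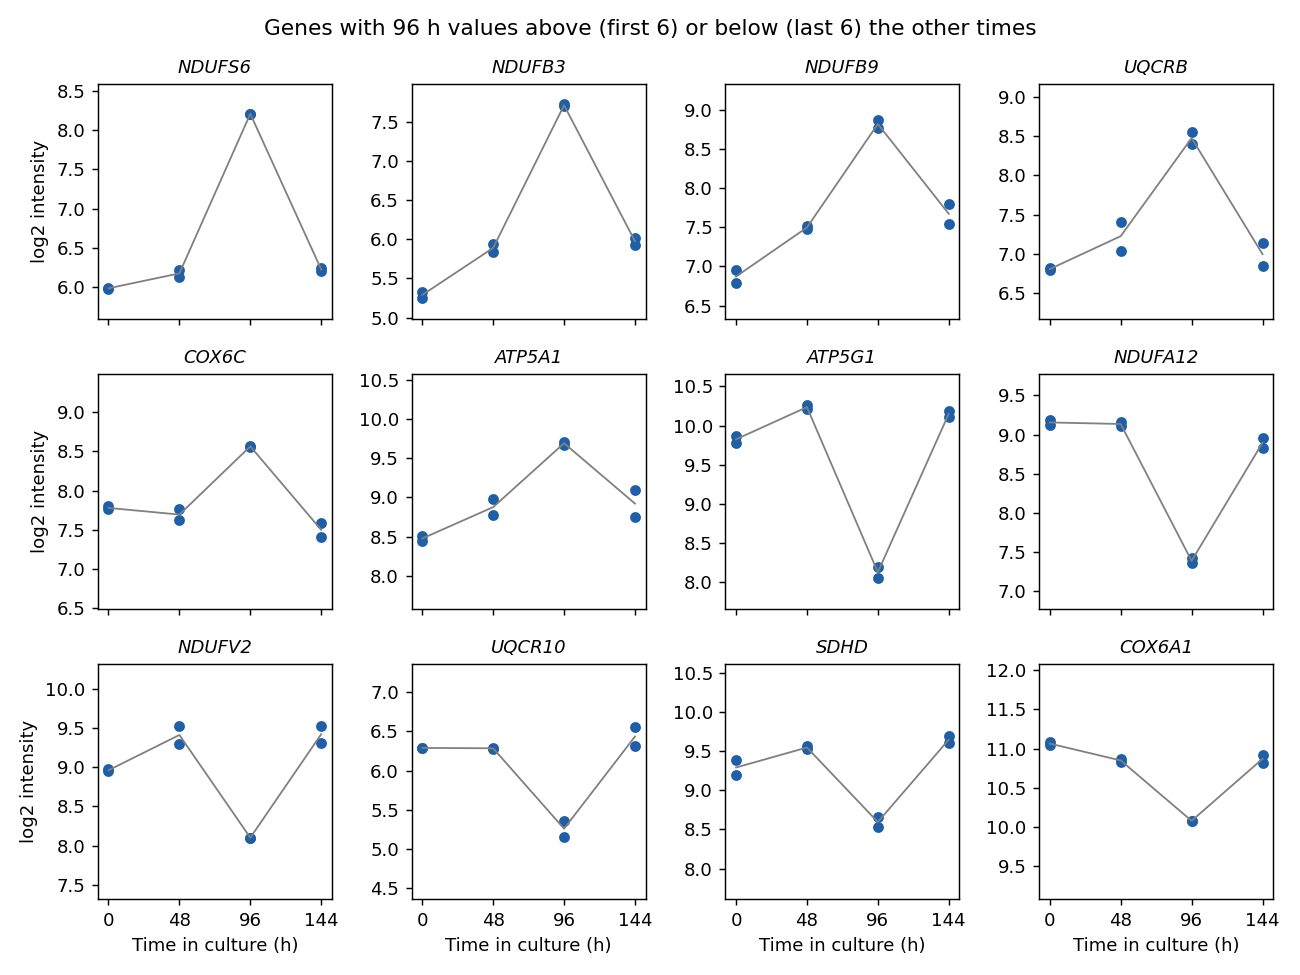
Log2 intensity on each array (points) and the mean per time (line) against time in culture for 12 genes; every panel spans 3 log2 units. In the first 6 panels both 96 h points lie above all others, and in the last 6 below all others.

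Complex I takes electrons from NADH, and its core subunits carry the flavin and the iron-sulfur clusters. Of 7 core genes encoded in the nucleus, 3 were measured. NDUFV2, an iron-sulfur subunit of the NADH-binding part, had log2 intensities of 8.95 and 8.97 at 0 h, 9.52 and 9.30 at 48 h, 8.10 and 8.10 at 96 h, and 9.53 and 9.31 at 144 h. Its 96 h arrays lay below all others, with a difference from 48 h of -1.31 ± 0.13 (SE, n = 2 per time, limma adjusted p = 0.000224) and a rise of 1.32 ± 0.13 to 144 h (adjusted p = 0.000416). NDUFV2 was also called higher at 48 h than at 0 h, by 0.45 ± 0.13, but not without the 96 h arrays or either of them (adjusted p = 0.0617), either 0 h array (0.113 and 0.101) or 48 h replicate 1 (0.166). NDUFS1, the largest iron-sulfur subunit, went from 7.06 and 7.25 at 0 h to 7.61 and 7.63 at 48 h, 7.64 and 7.60 at 96 h, and 7.59 and 7.37 at 144 h. NDUFS1 thus lay above 0 h on every later array, was called at 48 h (0.47 ± 0.12, adjusted p = 0.0239) and at 96 h (0.46 ± 0.12), and did not pass at 144 h (0.33 ± 0.12, adjusted p = 0.0833). Its 48 h call was lost without 0 h replicate 1, either 48 h array or either 96 h array (adjusted p up to 0.14), and its 96 h call without 0 h replicate 1 or either 96 h array (up to 0.114). NDUFS3 had values of 8.76 and 8.54, 9.16 and 9.06, 8.64 and 8.50, and 9.04 and 8.70 at the 4 times. Its 96 h level overlapped that at 0 h and differed from that at 48 h by -0.54 ± 0.15 (adjusted p = 0.0286), a call lost without any one of the 48 h and 96 h arrays (adjusted p up to 0.172).

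The accessory subunits of complex I surround the core and are needed for its assembly and stability. Of 18 measured accessory genes, 5 rose and 6 fell from 48 h to 96 h, 7 did not pass, and the median was -0.29. The share called was 61.1%, against 29.4% of all features. NDUFS6, a zinc-binding subunit added late in assembly, stood at 5.99 and 5.98 at 0 h and at 6.13 and 6.22 at 48 h, then at 8.21 and 8.21 at 96 h, and at 6.21 and 6.24 at 144 h. The 96 h arrays lay far above the other 6, which lay within a narrow band: the difference from 48 h was 2.04 ± 0.10 (4.1-fold, adjusted p = 1.7e-05), and that from 96 h to 144 h was -1.98 ± 0.10 (adjusted p = 3.67e-05). Between 144 h and 0 h NDUFS6 differed by 0.24 ± 0.10 and did not pass (adjusted p = 0.117).

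NDUFB3, a subunit of the membrane arm, had values of 5.25 and 5.33 at 0 h, 5.94 and 5.84 at 48 h, 7.72 and 7.70 at 96 h, and 6.02 and 5.93 at 144 h. All later arrays lay above 0 h, with differences of 0.60 ± 0.11, 2.42 ± 0.11 (5.35-fold, adjusted p = 1.36e-06) and 0.68 ± 0.11 (adjusted p = 0.00167). NDUFB9, also of the membrane arm, had a like course, from 6.95 and 6.79 to 7.52 and 7.47, 8.87 and 8.76, and 7.54 and 7.80. Its differences from 0 h were 0.62 ± 0.13 (adjusted p = 0.00727), 1.94 ± 0.13 (adjusted p = 9.95e-06) and 0.80 ± 0.13 (adjusted p = 0.0018), and the 48 h and 144 h arrays lay between those of 0 h and 96 h. Without 0 h replicate 2 the 48 h call was lost (adjusted p = 0.0554).

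NDUFA12, an accessory subunit of the matrix arm, went the other way. It had 9.12 and 9.19 at 0 h, 9.16 and 9.11 at 48 h, 7.36 and 7.42 at 96 h, and 8.96 and 8.83 at 144 h. The 0 h and 48 h arrays overlapped, and the 96 h arrays were lower than those of 48 h by a difference of -1.75 ± 0.11 (3.37-fold, adjusted p = 3.2e-05). Against 0 h, the 144 h difference of -0.25 ± 0.11 did not pass (adjusted p = 0.117) but was called lower after quantile normalization (0.0271) and cyclic loess (0.0163). NDUFB6, of the membrane arm, had 8.79 and 8.74, 9.64 and 9.27, 8.80 and 8.82, and 9.38 and 9.11. NDUFB6 was higher than at 0 h at 48 h (0.69 ± 0.15, adjusted p = 0.0102) and at 144 h (0.48 ± 0.15, adjusted p = 0.0438), while at 96 h it lay close to its 0 h values. The 144 h call was lost without either 0 h array, 144 h replicate 1 or either 96 h array (adjusted p up to 0.165) and after quantile normalization or cyclic loess, and the 48 h call without 0 h replicate 2 (0.06) or 48 h replicate 1 (0.0686). NDUFA6 was called in none of the 6 comparisons, with values between 4.54 and 5.15 on all 8 arrays. Its other feature, of lower intensity, was called lower at 144 h, with 3.42 and 3.21 against 3.74 and 4.19 at 0 h (-0.65 ± 0.17, adjusted p = 0.0197), so the 2 features disagree.

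Complex II, succinate dehydrogenase, was represented by SDHD, one of its membrane anchors. SDHD had 9.19 and 9.39 at 0 h, 9.52 and 9.57 at 48 h, 8.53 and 8.66 at 96 h, and 9.69 and 9.60 at 144 h. The 96 h arrays lay below all others, with a difference from 48 h of -0.95 ± 0.12 (adjusted p = 0.000764), and neither 48 h nor 144 h was called against 0 h. The other SDHD feature, of lower intensity, also had its lowest values at 96 h, 3.85 and 3.94, against 4.12 to 4.62 on the other arrays.

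Complex III passes electrons from ubiquinol to cytochrome c, and its 2 measured subunit genes moved apart at 96 h. UQCRB, which takes part in binding ubiquinone, had 6.79 and 6.82 at 0 h, 7.41 and 7.04 at 48 h, 8.55 and 8.40 at 96 h, and 7.14 and 6.85 at 144 h. UQCR10, a small subunit, had 6.29 and 6.29, 6.29 and 6.28, 5.16 and 5.36, and 6.31 and 6.56. The 96 h arrays of UQCRB thus lay above and those of UQCR10 below all others, with differences from 48 h of 1.25 ± 0.16 (adjusted p = 0.00083) and -1.03 ± 0.13 (adjusted p = 0.000762). Neither was called between 0 h and 48 h or between 0 h and 144 h.

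Complex IV, cytochrome c oxidase, reduces oxygen to water. None of its 10 measured genes was called at 48 h or at 144 h against 0 h (at an unadjusted p below 0.05, none was higher and 1 lower in each comparison). Over all features, 30.0% and 32.1% were called. After cyclic loess, COX6A1 was called lower at both times, and COX2 (-0.51, adjusted p = 0.0135) and COX6C (-0.39, adjusted p = 0.0244) at 144 h; after quantile normalization, COX6C was called lower at 144 h (-0.36, adjusted p = 0.0368). As deposited, from 48 h to 96 h 2 rose and 3 fell (50.0% called, against 29.4% of all features). COX6C, a small nuclear-encoded subunit, had 7.76 and 7.80 at 0 h, 7.63 and 7.76 at 48 h, 8.57 and 8.56 at 96 h, and 7.59 and 7.41 at 144 h. COX7A2, the isoform found in most tissues, had 7.37 and 7.55, 7.94 and 7.57, 8.48 and 8.56, and 7.24 and 7.46. For both genes the 96 h arrays were the highest, with differences from 48 h of 0.87 ± 0.11 (adjusted p = 0.001) and 0.77 ± 0.15 (adjusted p = 0.00708). Without 96 h replicate 2 the COX7A2 call was lost (adjusted p = 0.0588).

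COX6A1, the isoform of subunit 6A outside muscle, had 11.08 and 11.05 at 0 h, 10.87 and 10.83 at 48 h, 10.08 and 10.08 at 96 h, and 10.82 and 10.92 at 144 h. Its 96 h arrays were the lowest, with a difference from 48 h of -0.77 ± 0.10 (adjusted p = 0.00108). The difference of -0.22 ± 0.10 between 48 h and 0 h did not pass (adjusted p = 0.155), although the arrays did not overlap and the gene was called lower after cyclic loess. COX8H, the heart isoform of subunit 8, lay below the lower quartile of its array on 7 of 8 arrays and was called in no comparison, and no detection call was used here. NDUFA4L2, which is known to be induced by low oxygen, also lay below the lower quartile on 7 of 8 arrays, with 2.77 and 2.98 at 0 h, 2.91 and 2.82 at 48 h, 3.29 and 3.16 at 96 h, and 3.09 and 3.02 at 144 h. Its call at 96 h against 0 h (0.35 ± 0.12, adjusted p = 0.0485) was lost without any one of the 0 h, 48 h and 96 h arrays (up to 0.263), and neither gene is shown to lie above background.

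The subunits encoded by mitochondrial DNA form the catalytic core of complex IV. COX1 had 12.00 and 11.98 at 0 h, 12.27 and 12.05 at 48 h, 12.28 and 12.26 at 96 h, and 11.88 and 11.96 at 144 h. It was called in none of the 6 comparisons, and its 96 h value differed from that at 48 h by 0.11 ± 0.12. COX2 (chosen after its values were seen) lay between 11.11 and 11.67 on all arrays and was called in none as deposited, but was called lower at 144 h than at 0 h after cyclic loess. Its difference as deposited was -0.28 ± 0.13. Among the other genes of mitochondrial DNA, 6 were measured: ND1, ND2, ND3, ND5 and ND6 of complex I and CYTB of complex III. None of these 6 was called by limma between 96 h and 48 h or between 144 h and 96 h, also at an unadjusted p below 0.05; between 144 h and 48 h none was called and 1 was lower at that level, and between 144 h and 0 h none was called and 2 were higher. ND2 was the single one called against 0 h, at 48 h (1.35 ± 0.24) and 96 h (1.08 ± 0.24). The 0 h arrays of ND2, 9.85 and 8.97, lay far apart from each other. They lay below 10.80 and 10.71 at 48 h, 10.48 and 10.50 at 96 h, and 10.16 and 10.08 at 144 h. The 2 arrays of ND6 at 144 h, 6.56 and 4.71, also lay far apart. ND2 and ND6 were chosen after their values were seen. Apart from ND2 and ND6, these genes had intensities above 11 on every array, near the top of the scale, and whether such signals were saturated was not tested.

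**Figure D4:**
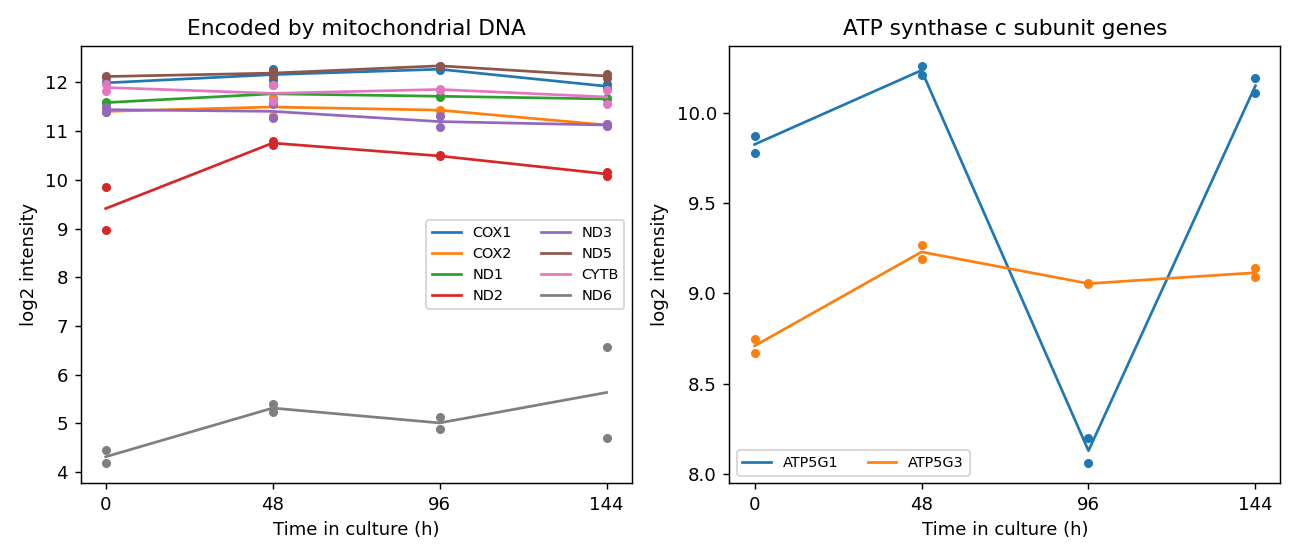
Log2 intensity on each array (points) and the mean per time (lines) against time in culture, for 8 genes encoded by mitochondrial DNA (left) and for a pair of genes of the ATP synthase c subunit (right). The mitochondrial lines are near flat except for ND2 and ND6, and ATP5G1 drops to 8.20 and 8.06 at 96 h while ATP5G3 stays at 9.06 and 9.05.

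The ATP synthase consists of the catalytic F1 head and the membrane-bound Fo part with its stalks. Of its 10 measured genes, 3 rose and 4 fell from 48 h to 96 h (70.0% called, against 29.4% of all features). In F1, the genes of the alternating alpha and beta subunits moved apart. ATP5A1 (alpha) had 8.44 and 8.51 at 0 h, 8.98 and 8.77 at 48 h, 9.67 and 9.71 at 96 h, and 9.09 and 8.75 at 144 h. ATP5B (beta, which holds the catalytic sites) had 10.69 and 10.74, 10.93 and 10.82, 10.35 and 10.35, and 10.88 and 10.71. The 96 h arrays were the highest for ATP5A1 and the lowest for ATP5B, with differences from 48 h of 0.82 ± 0.14 (adjusted p = 0.00378) and -0.53 ± 0.11 (adjusted p = 0.00941). The other ATP5B feature, of lower intensity, had 5.12 and 5.19 at 96 h, within the range of 4.89 to 5.82 of the other arrays, and with both features averaged the ATP5B call was lost (adjusted p = 0.261). It was also lost without 48 h replicate 1, 96 h replicate 1 or 96 h replicate 2 (0.0617, 0.073 and 0.0681). ATP5E, the epsilon subunit, had 10.03 and 9.94 at 0 h, 9.82 and 9.57 at 48 h, 8.91 and 9.06 at 96 h, and 9.81 and 9.71 at 144 h, so that its 96 h arrays were the lowest (difference from 0 h -1.0 ± 0.13, adjusted p = 0.000379). ATP5E was also called lower than at 0 h at 48 h after quantile normalization (adjusted p = 0.046) and at 48 h and 144 h after cyclic loess (0.0139 and 0.0354), but not as deposited.

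The ring of c subunits in Fo turns as protons pass, and several genes encode the same mature c protein with different import signals. ATP5G1 had 9.87 and 9.78 at 0 h, 10.26 and 10.21 at 48 h, 8.20 and 8.06 at 96 h, and 10.11 and 10.19 at 144 h. Its difference of -2.11 ± 0.11 between 96 h and 48 h (4.32-fold, adjusted p = 1.85e-05) was the largest fall among the 52 genes, and the return to 144 h was 2.02 ± 0.11 (adjusted p = 4.69e-05). ATP5G3 had 8.75 and 8.67, 9.19 and 9.27, 9.06 and 9.05, and 9.09 and 9.14. All later arrays of ATP5G3 lay above those of 0 h, with differences of 0.52 ± 0.10 at 48 h (adjusted p = 0.00663), 0.35 ± 0.10 at 96 h and 0.41 ± 0.10 at 144 h (adjusted p = 0.0192), and 96 h did not differ from 48 h with a call (-0.17 ± 0.10, adjusted p = 0.267). The ATP5G3 calls were lost after cyclic loess (adjusted p = 0.0618, 0.0988 and 0.131), those at 96 h and 144 h also after quantile normalization (0.13 and 0.0788) and without 0 h replicate 1 (0.0663 and 0.0544) or 0 h replicate 2 (0.132 and 0.103), and that at 96 h without 96 h replicate 1 or 2 (0.143 and 0.129). The difference between the courses of ATP5G1 and ATP5G3 was not itself tested.

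Among the other Fo and stalk genes, ATP5L (subunit g) had 6.23 and 6.53 at 0 h, 7.30 and 7.0 at 48 h, 7.64 and 7.81 at 96 h, and 7.23 and 6.98 at 144 h. ATP5L was higher than at 0 h at every later time, by 0.77 ± 0.16 (adjusted p = 0.00855), 1.35 ± 0.16 (adjusted p = 0.000275) and 0.72 ± 0.16 (adjusted p = 0.0104), and the calls at 48 h and 144 h were lost without 0 h replicate 1 (adjusted p = 0.0646 and 0.0772), that at 48 h also without 48 h replicate 1 (0.0654). ATP5O, the stalk subunit that confers oligomycin sensitivity, had 7.35 and 7.46, 7.75 and 7.60, 6.87 and 6.88, and 7.61 and 7.40. Its 96 h arrays were the lowest, with a difference from 48 h of -0.80 ± 0.12 (adjusted p = 0.00189). ATP5J2 (subunit f) lay between 10.05 and 10.34 on all 8 arrays and was called in no comparison. ATP5I (subunit e) had low intensities, 3.70 to 4.46, and its 96 h arrays, 4.46 and 4.45, were the highest; its calls against 48 h (0.57 ± 0.17, adjusted p = 0.0379) and 144 h were lost without either 48 h or either 96 h array (adjusted p up to 0.199), the latter also without 144 h replicate 1 (0.154).

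Assembly factors insert cofactors or hold the growing complexes. NDUFAF3, which acts with NDUFAF4 early in the assembly of complex I, fell in culture: it had 8.11 and 8.08 at 0 h, 7.42 and 7.42 at 48 h, 7.08 and 7.03 at 96 h, and 7.45 and 7.46 at 144 h. All later arrays lay below those of 0 h, and the differences were -0.68 ± 0.10 (adjusted p = 0.00149), -1.04 ± 0.10 (adjusted p = 7.91e-05) and -0.64 ± 0.10 (adjusted p = 0.00167), called under every alternative run. NDUFAF4 had 5.75 and 5.88, 6.38 and 6.44, 5.36 and 5.34, and 6.52 and 6.22. NDUFAF4 was thus higher than at 0 h at 48 h (0.60 ± 0.13, adjusted p = 0.0095) and 144 h (0.56 ± 0.13, adjusted p = 0.0122) and lower at 96 h (-0.47 ± 0.13, adjusted p = 0.0207), opposite to NDUFAF3 at 48 h and 144 h. Its calls at 48 h and 144 h were lost without 0 h replicate 1 (adjusted p = 0.0655 and 0.0799), that at 48 h without 48 h replicate 2 (0.0529), and that at 96 h after median centring (0.0583) and without 0 h replicate 2 or either 96 h array (up to 0.117).

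COX10, which makes the heme precursor of cytochrome c oxidase, had 5.96 and 6.23 at 0 h, 6.28 and 6.27 at 48 h, 6.82 and 7.14 at 96 h, and 6.11 and 6.33 at 144 h. Its 96 h arrays were the highest (difference from 48 h 0.70 ± 0.16, adjusted p = 0.0113), and its other feature was also highest there, at 4.12 and 4.32. The call was lost without either 48 h array or 96 h replicate 2 (adjusted p = 0.0566, 0.0549 and 0.1). COX17, the copper chaperone of the same complex, had 8.55 and 8.53, 9.11 and 8.80, 8.20 and 8.29, and 8.58 and 8.63. COX17 was highest at 48 h and lowest at 96 h (difference -0.71 ± 0.13, adjusted p = 0.0044). Its call at 48 h against 0 h (0.41 ± 0.13, limma adjusted p = 0.0437) was weak. It was lost after cyclic loess (0.226) and quantile normalization (0.168), and without the 96 h arrays (0.0844). Without 48 h replicate 1 the difference was 0.26. NDUFAF6 was called in no comparison, with values of 3.71 to 4.32. In all, 2 of the 8 assembly factor genes rose and 4 fell from 48 h to 96 h.

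Among genes that work beside the chain, GPD2 had the largest difference of its list between 144 h and 0 h. Other genes of that list were also still shifted at 144 h. Of 45 listed genes of electron entry, cytochrome c and assembly outside the members, 16 were measured, of which 5 rose and 1 fell from 0 h to 144 h (37.5% called, against 32.1% of all features). From 0 h to 96 h, 8 rose and 3 fell (68.8%, against 41.3%). From 48 h to 96 h, 5 rose and 2 fell (43.8%, against 29.4%). GPD2, which passes electrons from glycerol phosphate to ubiquinone, had 4.56 and 4.83 at 0 h, 6.21 and 6.17 at 48 h, 7.48 and 7.63 at 96 h, and 7.25 and 7.31 at 144 h. It lay above 0 h on every later array, by 2.58 ± 0.13 at 144 h (adjusted p = 3.07e-06), and its 144 h value was close to that of 96 h. CYCS and TMEM126B were also called higher than at 0 h at all 3 later times, by 0.86 ± 0.13 and 0.46 ± 0.12 at 144 h. FOXRED1 was called lower at all 3, by -0.56 ± 0.11 at 144 h. CYCS, TMEM126B and FOXRED1 were chosen after their values were seen. SQOR, which passes electrons from sulfide to ubiquinone, was higher at 144 h by 1.14 ± 0.22 (adjusted p = 0.00496), from levels of 4.18 and 3.79 to 5.47 and 4.78.

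Of 26 genes of the citric acid cycle and of pyruvate entry, 18 were measured, and 5 rose and 2 fell from 0 h to 144 h (38.9% called, close to the 32.1% of all features), with a median of 0.20. From 0 h to 96 h, 10 rose and 5 fell (83.3%, against 41.3% of all features). From 48 h to 96 h, 7 rose and 4 fell (61.1%, against 29.4%). Between 0 h and 144 h, the largest shifts were those of kinases that switch off pyruvate dehydrogenase. PDK4 fell from 8.07 and 8.33 at 0 h to 6.98 and 6.88 at 48 h, 3.43 and 3.24 at 96 h, and 4.48 and 3.92 at 144 h, a difference of -4.0 ± 0.19 at 144 h (adjusted p = 2.67e-06). PDK3 rose from 4.61 and 4.76 to 7.15 and 7.03, 7.53 and 7.59, and 7.39 and 7.22, a difference of 2.62 ± 0.12 (adjusted p = 2.03e-06). The groups of 0 h and 144 h did not overlap for either gene.

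Of 23 regulators of mitochondrial biogenesis, 14 were measured, of which 2 rose and 4 fell from 0 h to 144 h (42.9% called, against 32.1% of all features). From 0 h to 96 h 57.1% were called (against 41.3%), and from 48 h to 96 h 21.4% (against 29.4%). NRF1, a transcription factor known for its sites in promoters of respiratory chain genes, had 6.97 and 7.14 at 0 h, 6.26 and 6.23 at 48 h, 5.96 and 5.92 at 96 h, and 6.01 and 6.16 at 144 h. Every later array lay below 0 h, with a difference of -0.97 ± 0.12 at 144 h (adjusted p = 0.000364). MYC went from 6.13 and 6.44 at 0 h to 6.78 and 7.88 at 144 h (1.04 ± 0.31, adjusted p = 0.0351), a call lost without any one array except 144 h replicate 1 (adjusted p up to 0.172). Of 79 mitochondrial ribosomal protein genes, 38 were measured, and from 48 h to 96 h 7 rose and 15 fell (57.9% called, against 29.4% of all features), from 96 h to 144 h 15 rose and 5 fell (52.6%, against 22.2%), and from 48 h to 144 h limma called none higher and 1 lower (1 and 5 at an unadjusted p below 0.05). MRPS6 (-1.67 ± 0.19) and MRPS10 (1.41 ± 0.20) had the largest called differences of this list at 144 h against 0 h. Of 21 glycolysis and lactate genes, 13 were measured, and from 0 h to 48 h limma called 10 higher and none lower (11 and none at an unadjusted p below 0.05), and from 0 h to 144 h 8 rose and 1 fell. The shares called were 76.9% and 69.2%, against 30.0% and 32.1% of all features. From 48 h to 96 h, 2 of these 13 rose and 7 fell (69.2%, against 29.4%). From 48 h to 144 h none rose and 3 fell (23.1%, against 8.64%). Within this list HK1 and HK2, the hexokinase genes, differed by 2.13 ± 0.13 and 1.67 ± 0.12 at 144 h against 0 h.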

How the data were processed

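Total RNA of 8 granulosa cell samples, 2 at each of 4 times, was labelled with biotin and hybridised to Affymetrix whole-transcript arrays, per the labels' protocols. The authors deposited log2 intensities, for which RMA (robust multi-array averaging) is named in the submitters' processing notes without software or settings. RMA gives arrays like distributions and so hides a shift common to most transcripts. Groups came from the sample titles. Genes were named by the platform annotation, and the gene identifier of 51 of the 52 members led to the same symbol in RefSeq (assembly Sscrofa11.1). A gene with several features was represented by the one with the highest mean.

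One mean per time was fitted to all 27558 features and 8 arrays (limma 3.58.1, R 4.3.3, lmFit and eBayes; 4 residual and 3.98 prior degrees of freedom). All 6 pairs of times were tested two-sided. Within each comparison the Benjamini-Hochberg adjustment ran over every feature, with calls made below an adjusted p of 0.05. The procedure was tested on simulated arrays, in which few features were changed, at a single time and with independent noise. In these data many more features were called, so the simulation does not show how the calls behave here. Whether a time's 2 arrays are of different animals or cultures is not in the labels, so p-values measure the spread between these arrays only, which may be technical. The number of arrays limits the precision. The members and the gene lists were chosen with earlier results of these data known.

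Named with the value on every array are the 3 members of each group with the largest called difference, those of highest and lowest mean, the tissue isoforms, and up to 5 members that went against the majority in a comparison. Of each related list, up to 2 genes with the largest called difference between 144 h and 0 h are named. Other names are marked as chosen after their values were seen. Alternatives were median centring, quantile normalization, cyclic loess, leaving out dim features (18019 kept), eBayes with trend and robust, fits to the 4 arrays compared or without 96 h, the replicate number as a block, an adjusted p below 0.01, the mean of all features of a gene, named genes only, and leaving out each array.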

Additional observations from a re-analysis of the deposited data

How the results depend on the processing

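No called member difference changed sign under the alternatives run except that of COX7C (chosen after its values were seen) at 96 h against 0 h, which was -0.42 as deposited and 0.02 (adjusted p = 0.941) with the mean of its 2 features, the second of which lay below the lower quartile on all 8 arrays. Of the members rising from 0 h to 48 h, 15 as deposited, 8 were called after cyclic loess, 9 after quantile normalization, 9 without the 96 h arrays and 6 at an adjusted p below 0.01; of those falling, 1 as deposited, 3 and 2 were called after these scalings. From 0 h to 96 h, the number falling went from 17 to 11 at an adjusted p below 0.01. From 0 h to 144 h, the number rising went from 9 to 5 after cyclic loess, 3 in the fit to the 4 arrays and 2 at an adjusted p below 0.01, and the number falling from 1 to 6 after cyclic loess and 4 after quantile normalization. The 1 fall from 48 h to 144 h became 0 in the fit to the 4 arrays, without the 96 h arrays and at an adjusted p below 0.01. The causes were not tested.

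Leaving out each array in turn gave 5 to 19 members rising and 1 to 2 falling from 0 h to 48 h, 13 to 19 and 9 to 18 from 0 h to 96 h, 3 to 12 and 1 to 3 from 0 h to 144 h, 7 to 14 and 11 to 23 from 48 h to 96 h, 0 and 0 to 1 from 48 h to 144 h, and 8 to 18 and 8 to 14 from 96 h to 144 h; the lone array left at a time is assumed to vary like the others. The deviations of same-numbered arrays from their time means had correlations of -0.038 to 0.188 over all features and -0.242 to 0.234 over the members, not above 0.1 in every pair of times, so the numbers were not taken to pair the samples; with the replicate block the counts were 15 and 1, 18 and 18, 9 and 1, 13 and 22, 0 and 1, and 15 and 14, in the order above. Among the named genes, the block ended the calls of COX17 at 48 h against 0 h (adjusted p = 0.0563), NDUFA4L2 at 96 h against 0 h (0.065), COQ10A (0.0501) and COQ6 (0.061) at 144 h against 0 h, and COQ6 at 144 h against 96 h (0.0556), and no other.

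With 2 arrays per time the median SE of a member's difference was 0.129, and time and any batch of handling cannot be told apart.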

Other observations

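From 0 h to 144 h, 32.1% of all features were called, which is the background for the counts of other mitochondrial genes. Of 33 protein import genes, 12 were measured, and limma called 1 higher and 6 lower from 0 h to 144 h at an adjusted p below 0.05 (58.3%), with a median of -0.40 against -0.05 over all features. TOMM34 and MTX1, linked to import at the outer membrane, had the largest of these differences, -1.13 ± 0.13 and -1.11 ± 0.13 (SE, n = 2 per time). Of 21 genes of fission, fusion and mitophagy, 7 were measured, with 1 higher and 3 lower (57.1%): MFF, a receptor for the fission machinery, rose by 1.46 ± 0.13, and FUNDC1, a mitophagy receptor, differed by -0.70 ± 0.16, a call lost without 0 h replicate 1 (adjusted p = 0.0705). Of 16 nucleotide and metabolite carriers and their partners, 9 were measured and 3 were higher (33.3%, close to the background), among them the outer membrane channel gene VDAC1 (1.02 ± 0.11) and the adenylate kinase gene AK4 (1.01 ± 0.14).

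Of 15 genes of coenzyme Q synthesis and function, 7 were measured. From 0 h to 144 h limma called 3 lower and none higher (3 and 1 at an unadjusted p below 0.05), which is 42.9% called. COQ10A differed by -0.37 ± 0.11 and COQ6 by -0.36 ± 0.12. Both calls were lost without either 0 h array, 144 h replicate 1 or either 96 h array, that of COQ6 also without either 48 h array (adjusted p up to 0.164 and 0.219), and both with median centring, with eBayes trend and robust, and with the replicate block (0.0501 and 0.061). From 48 h to 96 h limma called 4 of these 7 lower and none higher (5 and none at an unadjusted p below 0.05). The share called was 57.1%, against 29.4% of all features. From 96 h to 144 h, 2 were called higher and none lower (28.6%, against 22.2%). Of 9 mitochondrial antioxidant genes, 7 were measured, with 2 higher and 2 lower at 144 h (57.1%): SOD2, the manganese superoxide dismutase gene, rose by 2.05 ± 0.23 and TXN2, which encodes the mitochondrial thioredoxin, by 0.64 ± 0.13. Without 0 h replicate 1 the TXN2 call was lost (adjusted p = 0.0514).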
